A study of Rattus norvegicus with 12 samples.

Results

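The genes of bone morphogenetic protein (BMP), transforming growth factor beta (TGF-beta) and activin signalling were followed in rat cerebellar cultures kept with or without acetamiprid (ACE), a neonicotinoid insecticide that acts on nicotinic acetylcholine receptors. Members were the array probes whose gene symbol named a BMP, growth differentiation factor (GDF), TGF-beta, activin or inhibin, one of their receptors, a SMAD, noggin, a chordin, a follistatin, a gremlin or an inhibitor of DNA binding (Id1 to Id4). The rule found 84 probes for 66 genes among the 30367 probes and 26213 gene names of the array. The symbols differed between files: 78 member probes carried their symbol in all 12 files, 2 (both Bmp2k) only in 10 of them, and 4 (Gdf5, Smad6, Tgfbr3l and a Smad5 probe) only in the other 2. All 84 were counted.

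Cerebella of Sprague-Dawley rats aged 1 day were dissociated and grown as neuron-enriched cultures for 16 days in vitro. The ACE group (6 arrays) received 1 µM acetamiprid in DMSO from day 2 onward, and the control group (6 arrays) received the same 0.001% DMSO alone. Medium with 1% serum was used for the first 8 days and serum-free medium thereafter. Each of the 6 replicate numbers was a separate culture experiment from pooled pups of a single litter, and its control and ACE cultures shared that lot of cells, so that differences were taken within pairs. RNA came from whole cultures, in which fewer cells of a type and less RNA per cell cannot be told apart.

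Ligands of this superfamily are secreted dimers that bring together type I and type II serine/threonine kinase receptors. The type I receptor then phosphorylates receptor SMADs, which join Smad4 and enter the nucleus, where BMP signals classically raise Id genes. Noggin, chordin, gremlins and follistatin hold ligands away from the receptors, Smad6 and Smad7 damp the signal inside the cell, and in the developing cerebellum BMPs from the roof plate take part in specifying granule cell precursors.

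Levels are log2 intensities after quantile normalization, compared for each probe between arrays and never between probes. On each array 75.4% to 91.0% of probes were well above background. Markers of neurons, granule cells, Purkinje cells, astrocytes, oligodendrocytes and microglia were detected on all arrays for nearly every gene listed (all of the granule, Purkinje, astrocyte, oligodendrocyte and microglial genes, and 6 of 7 pan-neuronal genes). The mean level of 14 skeletal muscle markers ran from 6.73 to 11.25 over the control arrays and from 6.72 to 9.82 over the ACE arrays, with replicate 1 of both groups and control replicates 2 and 6 high. Control arrays were always in one place of their slide and ACE arrays in another, so that place and exposure cannot be told apart.

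Of the 84 member probes, 71 (58 genes) had enough signal to be tested, and 62 of these were well above background on all 12 arrays. Of the 84, 13 were left out, among them every probe of Bmp3, Bmp5, Bmp10, Bmp15, Gdf2, Inhbc, Inhbe and Smad3. Gdf3, Id2 and Acvr1c each lost 1 of 2 probes.

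No member passed the Benjamini-Hochberg threshold of 0.05 in the limma fit with replicate as a block, and neither did any of the 23796 probes tested (0% called). The lowest adjusted p was 0.141. With replicate as a random block, 5 of all probes passed, 1 of them Bmp8b. At an unadjusted limma p below 0.05, 9 of the 71 member probes (12.7%) were called, against 16.6% of all probes. Of the 9, 7 were higher in ACE (background 6.9%) and 2 were lower (background 9.73%). Which probes were called, and with it the split by direction, depended on the scaling. When each array was shifted by its 75th percentile in place of quantile normalization, 1 member call was higher and 7 were lower, while the higher share of calls over all probes went from 41.5% to 19.1%.

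The members' differences were small and centred on 0. The median log2 difference (ACE minus control) over the 71 probes was -2.0e-05, against -0.005 over all probes, and the median absolute difference was 0.072, against 0.062. Differences ran from -0.49 to 0.31, with 35 probes higher and 36 lower. Over all probes 47.8% were higher. No member differed by as much as 1.5-fold, which 1.72% of all probes did, and 66 of the 71 lay between the 5th and 95th percentiles of all probes (-0.27 and 0.21). All 6 pairs went in 1 direction for 6 members, 4 higher and 2 lower; over all probes the share was 11.6% (4.72% higher, 6.86% lower).

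**Figure D1:**
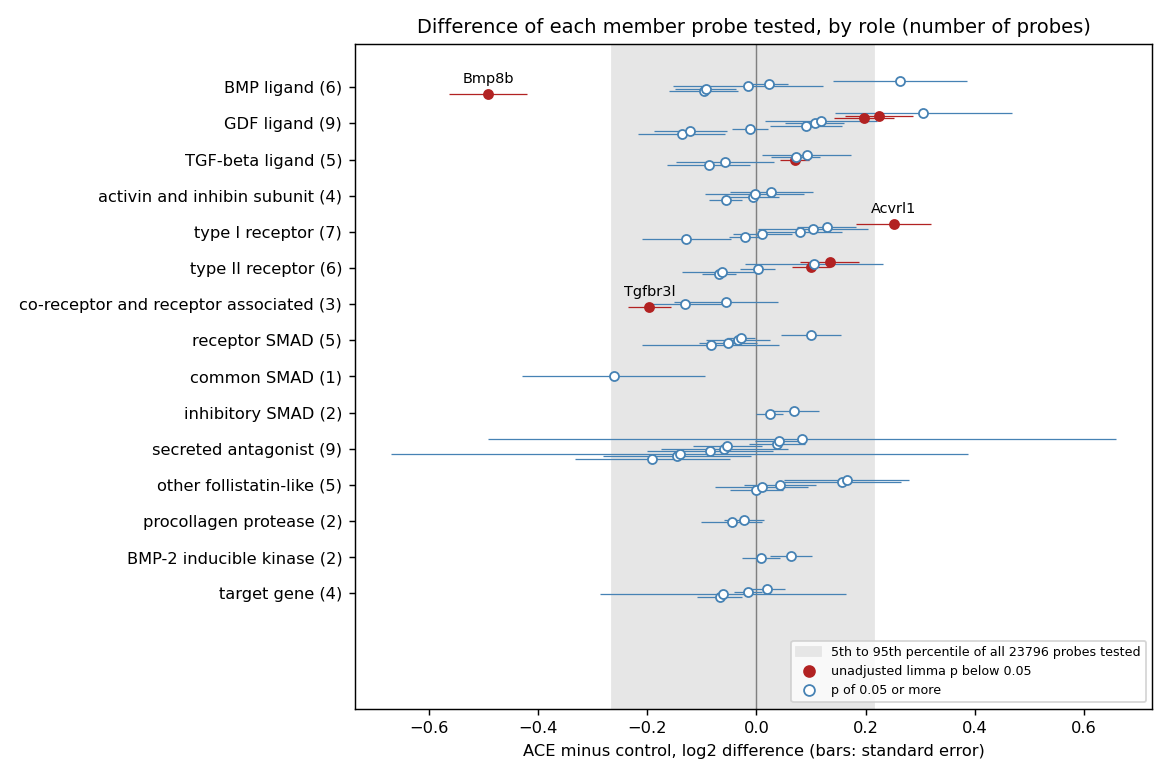
Log2 difference (ACE minus control, x axis) of 70 of the 71 member probes tested, by role (y axis, number of probes drawn in brackets), with bars for the limma standard error. Filled points are 8 of the 9 probes with an unadjusted limma p below 0.05, and the grey band spans the 5th to 95th percentile of all 23796 probes. Bmp8b, at -0.49, stood farthest from 0.

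Among the BMP ligands, Bmp8b was the member with the lowest p. Bmp8b encodes BMP-8B, a ligand known from germ cell development and from thermogenic fat. Its single probe lies at chr5:142438766-142438825 on the plus strand in the array annotation, which names no genome build. The probe of its close paralogue Bmp8a is given beside it, since the pair could share signal. Capitals mark the longest run the probes have in common, 10 bases. Laid on that run, the end of one and the start of the other overlap by 17 bases, of which 14 are identical. The probes were compared only with each other and not with the other gene's transcript. Whether the pair share signal was therefore not tested.
Bmp8b: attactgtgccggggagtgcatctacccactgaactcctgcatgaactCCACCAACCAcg
Bmp8a: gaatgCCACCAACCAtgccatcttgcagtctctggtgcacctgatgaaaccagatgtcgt

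Bmp8b read 4.14, 4.51, 4.31, 4.06, 4.37 and 4.23 on control replicates 1 to 6, and 3.81, 3.81, 3.75, 3.82, 3.67 and 3.80 on the ACE replicates. Every ACE array was below every control array. Over the 6 pairs the mean difference was -0.49 (SE 0.07, 95% interval -0.66 to -0.32), a 1.41-fold lower level. The limma p was 0.00034 unadjusted and 0.141 adjusted, and with replicate as a random block the adjusted limma p was 0.019. That fit uses a correlation shared by all probes. It gave Bmp8b an SE of 0.055, against 0.072 with the fixed block and 0.086 without a block. The fall of Bmp8b was known when the members were chosen, so that these values describe it and do not test it. Groups that did not overlap were found for 3 of the 23796 probes (0.0126%), and Bmp8b was the only one of them lower in ACE (0.0042%).

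The signal of Bmp8b was dim. The probe was well above background on replicates 1, 2 and 3 of each group and on none of replicates 4, 5 and 6. In the 3 pairs above background the differences lay between -0.70 and -0.33 (mean -0.53), and in the other 3 between -0.70 and -0.23 (mean -0.45). All 6 pairs had the same direction, above background or not. Bmp8b differed most in pairs 2 and 5, by -0.70 in each. The muscle marker level was 11.25 in control and 7.23 in ACE of pair 2, and 7.17 and 7.12 in pair 5. Over its 14 probes the muscle list had a median difference of -0.63, with 2 called lower and 0 higher, beside 9.73% and 6.9% of all probes. Its level in pair 6 went from 8.83 in control to 6.72 in ACE. The mean level of the choroid plexus markers was 7.38 in control and 7.65 in ACE of pair 2, and 9.35 and 7.11 in pair 5. Over the 5 choroid plexus probes the median difference was -0.18, with 1 called lower, beside 9.73% of all probes. The mean level of the endothelial markers was 5.97 and 5.84 in pair 2, and 6.37 and 5.51 in pair 5. The part of these cell types in the Bmp8b difference was not tested. Normexp background correction adds an offset of 50, and with it Bmp8b read 6.23 to 6.47 in control and 6.25 to 6.34 in ACE. The difference shrank to -0.08 and 5 of 6 pairs were lower. Under that setting and the 75th percentile shift (-0.63, 6 of 6 pairs lower) the groups overlapped.

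Bmp8a had no such difference. Its levels were 4.94 to 6.19 (median 5.99) in control and 5.51 to 6.24 (median 5.69) in ACE, and its limma difference was -0.02 (SE 0.14, unadjusted p = 0.912). Bmp7, a ligand of roof plate and kidney, read 6.25 to 7.79 (median 6.74) in control and 6.40 to 8.01 (median 7.19) in ACE. It was higher in 5 of 6 pairs by 0.26 (SE 0.12), and limma gave an unadjusted p of 0.072. Without replicate 1 the same probe gave 0.37 with an unadjusted limma p of 0.0089, and without replicate 2 it gave 0.16 with an unadjusted limma p of 0.164. Bmp2, Bmp4 and Bmp6, for which the probes were well above background on all arrays, differed by -0.10, 0.02 and -0.09. The smallest of their limma p was 0.139. Bmp4 moved by at most 0.11 in any pair while its replicates spanned 1.64. Bmp1, a procollagen protease that shares the name without being a ligand, differed by -0.05 and -0.02 over 2 probes. The first of these was -0.01 without replicate 2 and -0.10 without replicate 3, and was called in neither. Bmp2k, a kinase induced by BMP-2, had differences of 0.06 and 0.01. Over the alternatives the first of these ranged from 0.04, without replicate 5, to 0.13, and it was called in none.

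**Figure D2:**
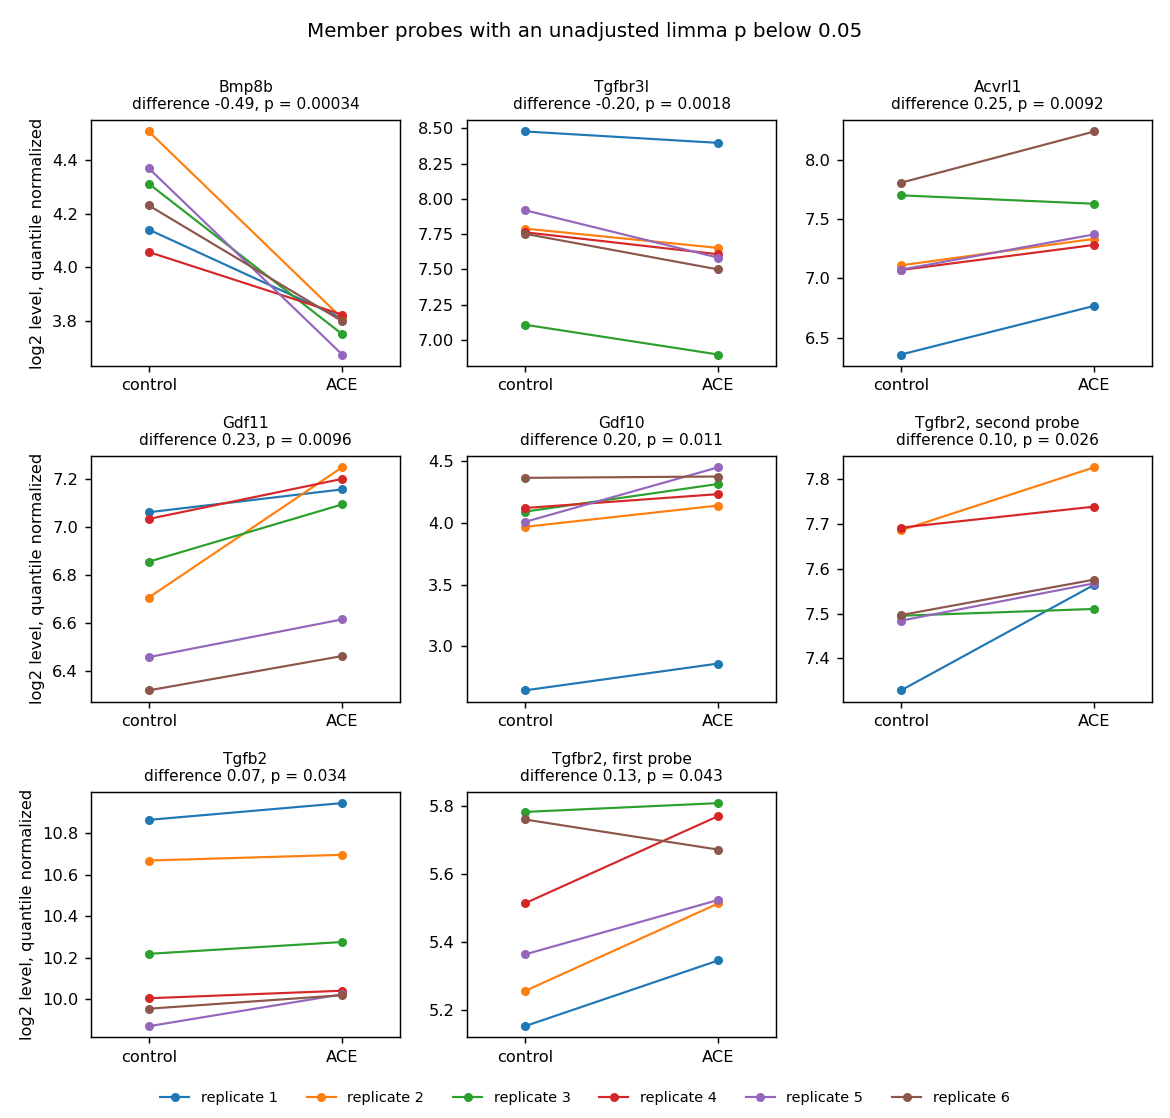
Log2 level (y axis, a separate range for each panel) of 8 of the 9 member probes with an unadjusted limma p below 0.05 in control and ACE arrays (x axis), with a line for each of the 6 replicate pairs. Bmp8b is the only panel in which all ACE points lie below all control points. In the other panels the groups overlap.

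Of the 9 GDF probes tested, 2 were called higher (6.9% of all probes were), and 6 were higher irrespective of the test (47.8% of all probes were). Gdf11, a patterning ligand and close relative of myostatin, read 6.32 to 7.06 (median 6.78) in control and 6.46 to 7.25 (median 7.13) in ACE on one probe. That probe was higher in 6 of 6 pairs, by 0.23 (SE 0.06, limma unadjusted p = 0.0096, adjusted p = 0.191). Under the 75th percentile shift it differed by 0.14 and was not called (limma unadjusted p = 0.071). The second Gdf11 probe differed by -0.01 (SE 0.03, limma unadjusted p = 0.73), so that the gene's own probes disagree. Gdf10, known as a product of Bergmann glia, read 2.64 to 4.37 (median 4.05) in control and 2.86 to 4.45 (median 4.28) in ACE. It too was higher in 6 of 6 pairs, by 0.20 (SE 0.06, limma unadjusted p = 0.011), but was well above background on 3 control and 5 ACE arrays only. Under the 75th percentile shift its difference was 0.08, and with normexp and its offset of 50 it was 0.04, and neither was called.

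The remaining GDF probes were not called. Gdf5, a joint and neurite growth ligand, had the largest difference of any member upward. Its levels were 5.78 to 7.42 (median 6.84) in control and 5.92 to 7.49 (median 7.18) in ACE, and the 0.31 difference (SE 0.16, 5 of 6 pairs) had a limma unadjusted p of 0.106. It was 0.16 without replicate 5 and 0.61 within the pairs of replicates 4 to 6, which were scanned together. With normexp it was 0.22 and called (limma unadjusted p = 0.035). Gdf15, a stress-induced member, differed by 0.11 (limma unadjusted p = 0.093), Gdf6 by -0.12 and Gdf7 by -0.14. Gdf3 and Gdf9 differed by 0.12 and 0.09.

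Of the 5 TGF-beta ligand probes tested, 1 was called, beside 16.6% of all probes. Tgfb2, a ligand that neurons and glia make, was covered by 3 probes. The called one read 9.87 to 10.86 (median 10.11) in control and 10.02 to 10.95 (median 10.16) in ACE, and was higher in 6 of 6 pairs by 0.07 (SE 0.03, limma unadjusted p = 0.034). The call was lost under 9 of 15 alternatives, among them the 75th percentile shift and the omission of replicate 1, 3, 5 or 6. The other Tgfb2 probes differed by 0.09 and -0.09 (limma unadjusted p = 0.297 and 0.292). Tgfb1 differed by 0.07 and Tgfb3 by -0.06. None of the 4 activin and inhibin subunit probes was called, a number too small to set against the 16.6% of all probes. Inha differed by -0.003, Inhba by 0.03, and the 2 probes of Inhbb, which forms activin B, by -0.06 and -0.01.

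Of the 13 type I and type II receptor probes tested, 3 were called higher, beside 6.9% of all probes. Acvrl1 (ALK1), a type I receptor for BMP9 and BMP10 best known in endothelium, read 6.36 to 7.81 (median 7.09) in control and 6.77 to 8.24 (median 7.35) in ACE. It was higher in 5 of 6 pairs, with replicate 3 the exception, by 0.25 (SE 0.07, limma unadjusted p = 0.0092, adjusted p = 0.189). The groups overlapped widely, since replicate 1 was lowest and replicate 6 highest in each. Of the 7 endothelial markers, 4 were well above background on all arrays and 1 (Tek) on none, and the mean level of the list was 5.46 to 6.37 in control and 5.51 to 5.85 in ACE. Over the 6 endothelial marker probes tested the median difference was -0.11, with 2 called lower and 0 higher, beside 9.73% and 6.9% of all probes. Over the 11 microglial marker probes tested it was 0.09, with 1 called lower and 3 higher. The part of either cell type in the receptor differences was not tested. Tgfbr1 (0.13, limma unadjusted p = 0.053), Acvr1b (0.10), Acvr1 (0.08) and Bmpr1b (0.01) were not called, nor were Bmpr1a (-0.02) and Acvr1c (-0.13).

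Tgfbr2, the type II receptor that binds TGF-beta, was the only member with more than 1 probe in which every probe was called. The probes are shown because they sample separate stretches of the gene, at chr8:120608686-120608745 and chr8:120593700-120593759 on the minus strand in the array annotation.
Tgfbr2 first probe: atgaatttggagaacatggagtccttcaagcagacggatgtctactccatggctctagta
Tgfbr2 second probe: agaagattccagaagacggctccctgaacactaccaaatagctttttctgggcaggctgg

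The first Tgfbr2 probe read 5.15 to 5.78 (median 5.44) in control and 5.34 to 5.81 (median 5.60) in ACE, and the second 7.33 to 7.69 (median 7.50) and 7.51 to 7.83 (median 7.57). The differences were 0.13 (SE 0.05, 5 of 6 pairs, limma unadjusted p = 0.043) and 0.10 (SE 0.04, 6 of 6 pairs, limma unadjusted p = 0.026). Both shrank under the 75th percentile shift, to 0.02 and 0.04, and were no longer called. The call also ended without replicate 1, 2, 4 or 5 for the first probe and without replicate 1, 2 or 6 for the second. The other type II receptors were not called. Acvr2a differed by 0.11, Bmpr2 by -0.07 (limma unadjusted p = 0.067), and the Acvr2b probes by -0.06 and 0.002.

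Of the 3 co-receptor and receptor-associated probes, 1 was called lower, beside 9.73% of all probes. Tgfbr3l, a relative of betaglycan known as an inhibin co-receptor of the pituitary, was the one called. Its levels were 7.11 to 8.48 (median 7.78) in control and 6.90 to 8.40 (median 7.60) in ACE. It was lower in 6 of 6 pairs by differences between -0.34 and -0.08, with a mean of -0.20 (SE 0.04, limma unadjusted p = 0.0018, adjusted p = 0.143). Betaglycan itself, Tgfbr3, differed by -0.13 on a probe that was well above background on 3 arrays of each group, and Tgfbrap1 by -0.06.

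None of the 8 SMAD probes tested was called, beside 16.6% of all probes. Smad1, which carries BMP signals, read 10.27 to 10.93 (median 10.67) in control and 10.22 to 11.16 (median 10.81) in ACE, a difference of 0.10 (SE 0.06, limma unadjusted p = 0.118). It was 0.06 without replicate 4, and 0.22 and called within the pairs of replicates 4 to 6 (limma unadjusted p = 0.02). Smad2, the Smad5 probes and Smad9 differed by -0.03, -0.05, -0.03 and -0.08. Inhibitory Smad6 and Smad7 differed by 0.02 and 0.07. Smad4, the common partner, had a difference of -0.26 (SE 0.17, limma unadjusted p = 0.165), and a single array set it. Control replicate 6 read 8.90 while the other 5 controls read 7.78 to 7.95 and the ACE arrays 7.66 to 7.89. Without replicate 6 the difference was -0.08.

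Among the secreted antagonists, Grem1 was lower on both probes, by -0.19 (SE 0.14) and -0.15 (SE 0.14), with limma unadjusted p of 0.222 and 0.321. The first of these was -0.09 without replicate 6 and -0.12 without replicate 5. Nog (0.04), Chrd (0.04), Chrdl1 (-0.05) and Chrdl2 (-0.06) had no call. Of the other follistatin-like genes Fstl1, Fstl4 and Fstl5, none was called. The Fstl5 probes differed by 0.16 and 0.17, in 4 of 6 pairs each, and the second by 0.06 without replicate 2.

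Fst, which encodes the activin-binding protein follistatin, and Fstl3 had the widest errors of all members tested. Fst differed by -0.14 (SE 0.53): 5 of 6 pairs were lower, but in pair 4 the ACE array read 8.34 against 5.60 in its control. One Fstl3 probe differed by 0.08 (SE 0.58), with control replicate 3 at 8.21 and ACE replicate 6 at 9.01 where the other arrays read 5.13 to 6.54. The second Fstl3 probe read 5.20 to 6.42 on all arrays and shared neither high value. A single array also stood alone for Inhbc (7.67 on control replicate 6, at most 3.08 elsewhere) and Smad3 (5.31 on control replicate 4 and 5.19 on ACE replicate 1, at most 2.46 elsewhere). Neither of those was tested.

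**Figure D3:**
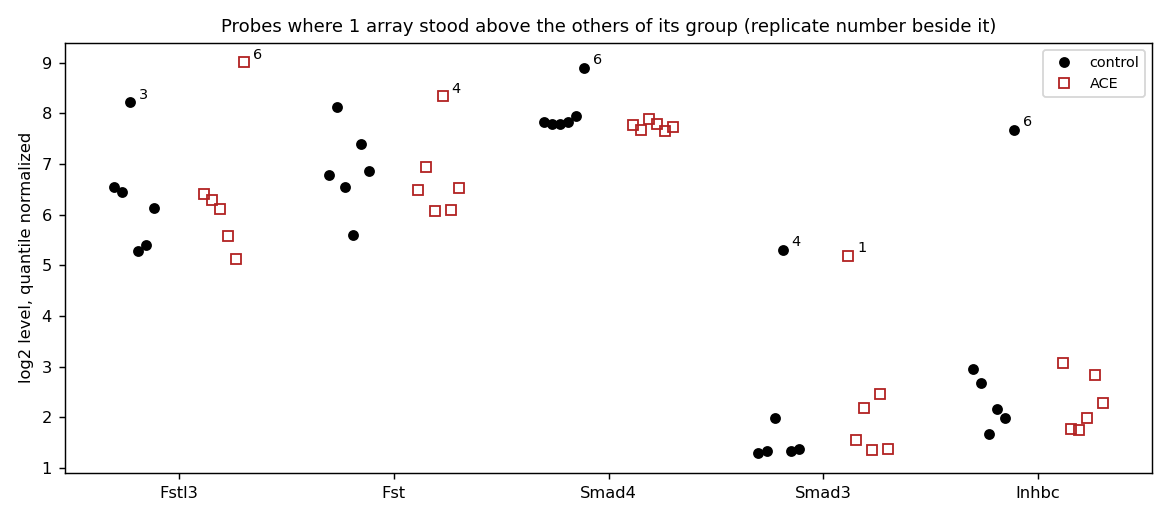
Log2 level (y axis) on all 12 arrays for 5 member probes (x axis) in which 1 array of a group stood well above the rest, with the replicate number printed beside it. Filled circles are control and open squares ACE arrays. The high arrays were control replicates 3, 4 and 6 and ACE replicates 1, 4 and 6, and no array was high for all 5 probes.

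None of the 4 probes tested for the Id genes, the classical BMP targets, was called, again too few to set against the 16.6% of all probes. Id1 read 10.96 to 11.87 (median 11.44) in control and 11.01 to 11.91 (median 11.40) in ACE, and differed by 0.02 (SE 0.03, 95% interval -0.06 to 0.10, limma unadjusted p = 0.559). Id2 differed by -0.07 (SE 0.04, limma unadjusted p = 0.151) and Id4 by -0.02 (SE 0.03). Control and ACE arrays of a replicate lay within 0.22 of each other for these 3 genes. Levels that differed between replicates were thus matched inside each pair.

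Id3 stood apart in its spread. It read 11.28, 10.11, 6.97, 5.36, 8.27 and 8.03 on control replicates 1 to 6 and 10.53, 9.80, 6.51, 6.36, 8.10 and 8.34 on ACE replicates 1 to 6. The pair means spanned 5.04, a span that 12 of the 23796 probes reached, against 0.91 for Id1, 0.73 for Id2, 0.68 for Id4 and a median of 0.77 over all probes. The Id3 probe holds 11 G or C among its bases (18.3%, median of all probes 45%), and only 21 of the tested probes were as poor in G and C. The muscle marker level was 10.54, 11.25, 7.16, 6.73, 7.17 and 8.83 on control replicates 1 to 6 and 9.82, 7.23, 6.85, 6.81, 7.12 and 6.72 on ACE replicates 1 to 6. The part of either in the spread of Id3 was not tested. The ACE difference was -0.06 (SE 0.23, limma unadjusted p = 0.793).

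**Figure D4:**
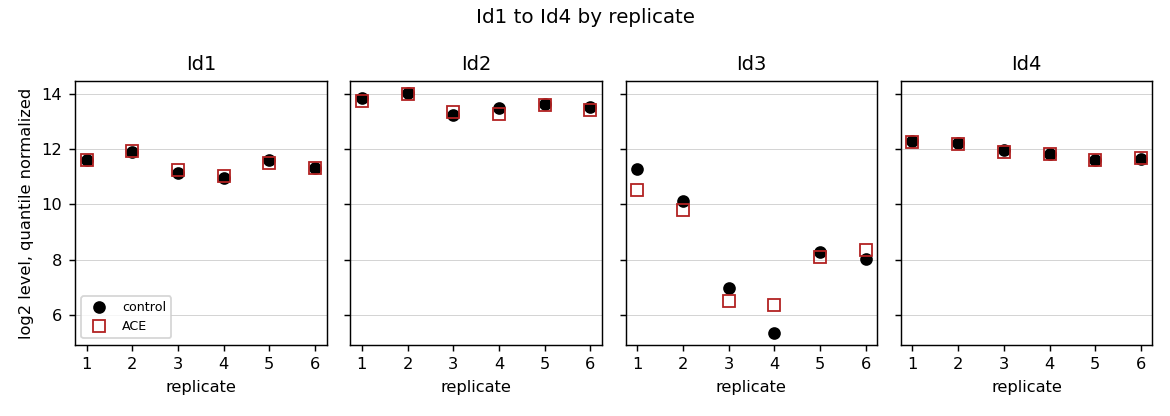
Log2 level (y axis) of Id1 to Id4 in control (filled circles) and ACE (open squares) arrays by replicate (x axis). Id3 varied by 5.04 between replicates, while the control and ACE points of a replicate differed by at most 1.00.

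Spread between culture experiments exceeded the ACE difference for most members. The median SD between replicates was 0.34 over the tested members (0.29 over all probes), and the median SD of the pair differences was 0.17 (0.13 over all probes). Replicate 1 supplied both the highest or both the lowest arrays for 26 of the 71 members, against 40.1% of all probes. Of the 12 genes with more than 1 tested probe, 8 had probes of 1 sign; Gdf11, Tgfb2, Fstl3 and Acvr2b did not.

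Other genes of the pathway, 52 on a fixed list, were covered by 63 tested probes for 46 genes. None passed the adjusted limma threshold (lowest adjusted p = 0.189). At an unadjusted limma p below 0.05, 3 probes were higher and 7 lower, 10 of 63 in all, beside the 16.6% of the array. The median difference was -0.02. Of the 22 probes of extracellular modulators tested, 4 were called lower, beside 9.73% of all probes. Ltbp4, which tethers latent TGF-beta to matrix, read 8.96 to 9.68 in control and 8.93 to 9.51 in ACE, and was lower in 6 of 6 pairs by -0.14 (SE 0.04, limma unadjusted p = 0.0094). Nbl1, a BMP antagonist, was lower in 6 of 6 pairs by -0.09 (SE 0.03). Cer1, another antagonist of this family, gave -0.71 (SE 0.23, 6 of 6 pairs). It was the only pathway probe past 1.5-fold, 1 of 63, beside 1.72% of all probes. Pairs 1 to 3 differed by -0.12, -0.15 and -0.19, and pairs 4 to 6 by -0.98, -1.24 and -1.55. This Cer1 probe was well above background on 2 control and 3 ACE arrays. The second Cer1 probe, well above background on 1 control and 0 ACE arrays, was not tested.

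Rgma, a BMP co-receptor and axon guidance molecule, was lower in 6 of 6 pairs by -0.13 (SE 0.05, limma unadjusted p = 0.03) on one probe, while its second probe differed by 0.02 (3 of 6 pairs higher, limma unadjusted p = 0.56). Ski, a repressor of SMAD transcription, was higher in 6 of 6 pairs by 0.21 (SE 0.08, limma unadjusted p = 0.031) on 1 of its 3 probes. The other Ski probes differed by -0.05 and -0.02, each lower in 4 of 6 pairs, so that the gene's probes disagree. Of the 11 target gene probes tested (9 genes), 1 was called higher and 2 lower, beside 6.9% and 9.73% of all probes. Hes1 was higher by 0.17 (5 of 6 pairs), and Msx2 and Atoh8, both BMP-responsive, were lower by -0.10 and -0.17 on the called probe (each in 5 of 6 pairs). The second probes of Msx2 (-0.11) and Atoh8 (-0.14) were not called.

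**Figure D5:**
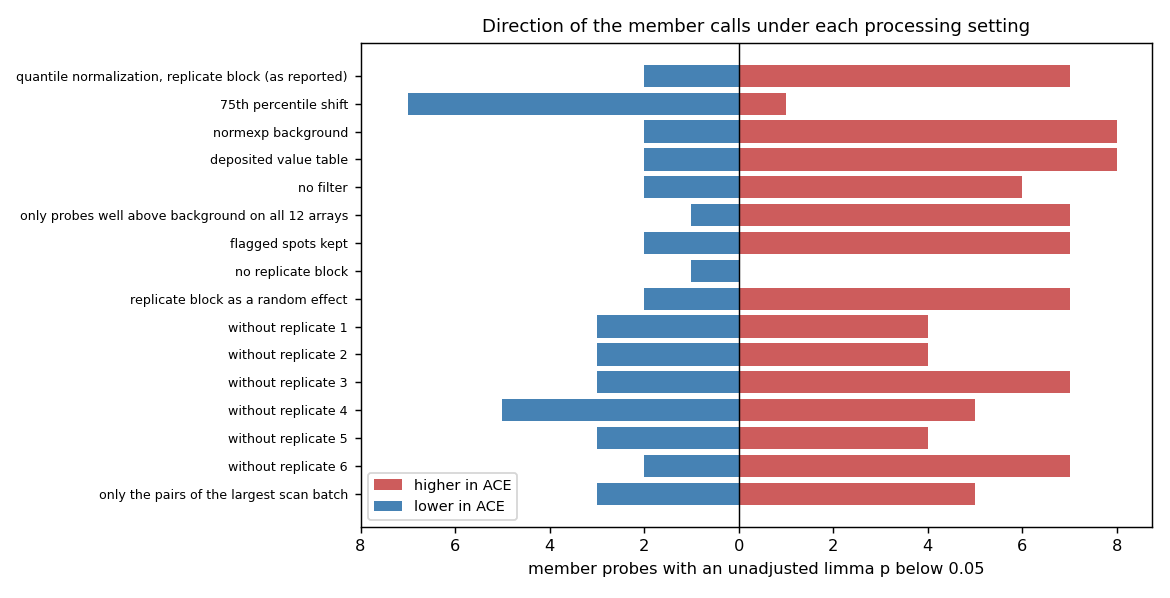
Number of member probes with an unadjusted limma p below 0.05 (x axis), higher in ACE to the right and lower to the left, under the reported setting and each alternative (y axis). The bar for the 75th percentile shift (1 higher, 7 lower) faces the other way from the reported one (7 higher, 2 lower), and without the replicate block 1 call is left.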

How the data were processed

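RNA of 12 cultures (6 control, 6 ACE) was hybridised to Agilent 1-colour 44k rat arrays, and per the file headers the intensity values were extracted with Feature Extraction 11.0.1.1 (replicate 1) or 11.5.1.1. Here, log2 of the deposited processed intensity was quantile normalized (limma 3.58.1, R 4.3.3) after spots flagged as outliers were set missing (447 probe values), and spots of a probe were averaged. Probes above the 20th percentile on at least 7 arrays with at least 4 complete pairs were kept (23796). A limma fit with replicate as a fixed block, two-sided, was adjusted over all of them by Benjamini-Hochberg at 0.05. Agreement of all 6 pairs is an exact signed-rank p of 0.031, the smallest possible. The block follows the shared litter and cell lot. Deviations of same-numbered arrays correlated by 0.45 to 0.91, and of others by -0.44 to 0.39. Slides coincide with replicates, and scan batch 4 holds replicates 4 to 6.

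Members and lists were chosen with earlier results of these data known. Members counted as named singly, and were followed through each alternative, when their unadjusted limma p was below 0.05 or they reached 1.5-fold. So did those that differed most in their role among probes well above background on all arrays, and Bmp8b always did. Values of other members are given in the text, but those members were not followed singly. Pathway genes were named by p, up to 8. Alternatives were the 75th percentile shift, normexp (offset 50), the authors' deposited log2 table, other filters and blocks, flagged spots kept, and omission of each replicate. The number of arrays limits the precision, and the genome build of the probe coordinates was not given in the sources used here. The results of 1 called member are not reported here by name or drawn singly.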

Additional observations from a re-analysis of the deposited data

Results flagged for a closer look

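Among the 21 member probes named singly, 42 groups of 6 arrays were examined for an array far from the rest, and 7 values were set apart; chance gives about 5% of groups. Gdf10 was low on replicate 1 in both groups, at 2.64 in control (next 3.97) and 2.86 in ACE (next 4.14). The Fstl5 probe with the larger difference was also low on replicate 1 in both, at 3.37 in control (next 4.91) and 3.19 in ACE (next 5.10). Replicate 1 was extracted with another software version than the rest, and whether this bears on its values was not tested. Bmp1 was high on control replicate 1, at 10.32 (next 9.73). Gdf5 was low on ACE replicate 6, at 5.92 (next 6.91). Smad4 was high on control replicate 6, at 8.90 (next 7.95).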

How the results depend on the processing

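The 9 member calls stayed between 7 and 10 under every alternative but 1: without the replicate block 1 member was called (Bmp8b) and no pathway probe (0), while the share of all probes called went from 16.6% to 0.34%. The block as a random effect gave 5 probes past the adjusted threshold of all tested, 1 of them Bmp8b (limma adjusted p = 0.019). The 6 members with all pairs in 1 direction became 0 once the signed-rank p-values were adjusted over all probes (lowest 0.27), and 8 by its normal approximation (19.3% of all probes). Leaving out each replicate in turn gave 7 to 10 member calls (9.72% to 14.1% of members, beside 11.9% to 17.6% of all probes), 4 to 11 pathway calls (4 without replicate 2, 4 or 5), and 7 to 13 members with 1 direction over the 5 pairs left (10 without replicate 1 or 4, 13 without replicate 3; over all probes 18% without replicate 1, 19% without 3 and 15.8% without 4, against 11.6% with all pairs). The 75th percentile shift changed which members were called, to 1 higher and 7 lower, while every singly named member probe kept its sign, and it moved the median of all probes from -0.005 to -0.03. Deposited values gave 8 higher and 2 lower, while 51.5% of the calls over all probes were higher.

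Bmp8b kept its direction and an unadjusted limma p below 0.05 in the 14 alternatives that tested it, from -0.63 to -0.08. It was not tested under the filter that kept only probes well above background on every array, which its dim probe did not pass. The fall of Bmp8b was known when the members were chosen, and the alternatives reprocess the same arrays. These values therefore describe the fall and do not test it. Acvrl1 and Tgfbr3l lost their call only without the block, and the called Gdf11 probe there and under the 75th percentile shift. Gdf10 lost it under 4 of 14 alternatives, the called Tgfb2 probe under 9 of 15, and the Tgfbr2 probes under 8 and 6. Single omissions that ended a call by limma were replicate 1, 3, 5 or 6 for Tgfb2 (p of 0.057 to 0.088), and replicate 1, 2, 4 or 5 (0.092 to 0.116) and 1, 2 or 6 (0.05 to 0.069) for the Tgfbr2 probes. Bmp7 was called by limma without replicate 1, with normexp, with the random block and within scan batch 4, and its difference was 0.16 without replicate 2. The other calls gained were Gdf5 with normexp, Smad1 within scan batch 4, Id2 without replicate 3 (-0.10) and Inhbb without replicate 4 (-0.08). Without replicate 4 Id2 differed by -0.04 and was not called. One Tgfb2 probe turned to -0.0058 within the pairs of scan batch 4. For these the cause was not tested. Of 313 comparisons of named probes with an alternative, 264 kept direction and call, 40 lost it and 8 gained it.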
